A study of Mus musculus with 8 samples.

Results

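Major-satellite-like transcripts are predicted mouse genes whose sequence resembles the major satellite, the tandem repeat that fills the pericentromeric heterochromatin of mouse chromosomes. The 10 genes described here were chosen by symbol and matched by Ensembl gene ID among 54446 genes counted in nuclear RNA: Gm10800, Gm10801, Gm21738, Gm10722, Gm11168, Gm10721, Gm10719, Gm10718, Gm10717 and Gm26870. The RNA came from C57BL/6 mouse embryonic stem cells grown in serum with LIF, CHIR99021 and PD0325901, in 4 groups of 2 libraries. The Mettl14 line gave Mettl14 control and Mettl14 cKO, and the Mettl3 line Mettl3 control and Mettl3 cKO. A cKO is a conditional knockout and stands beside control cells of its own line. The labels do not say how the controls were made, which exons were removed or how long after removal the cells were taken. METTL3 and METTL14 pair to place N6-methyladenosine (m6A) on RNA, and the series asks how nuclear RNA changes when either is lost.

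Total counts ran from 17235889 to 20086128 per library, and the labels name no separate cultures behind the 2 libraries of a group. The p-values below therefore rest on a spread between libraries that may be technical. Mettl14 lay at 58.3 and 55.0 CPM (counts scaled to library size by the TMM method) in Mettl14 control, above the 27.8 and 30.2 of Mettl14 cKO. Mettl3 lay at 37.9 and 36.1 CPM in Mettl3 control and at 19.8 and 18.5 in Mettl3 cKO, so each targeted transcript was lower in its knockout than in the control of the same line. Across the lines Mettl14 lay at 30.1 and 26.7 CPM in Mettl3 control and at 29.6 and 28.7 in Mettl3 cKO, overlapping its level in Mettl14 cKO, so its level marks the knockout only within the Mettl14 line. Across the 4 libraries of the Mettl14 line Mettl3 lay between 40.2 and 44.4 CPM. The summed level of 12 embryonic stem cell markers was 5143 to 5161 CPM in Mettl14 control, 3560 to 3590 in Mettl14 cKO, 1948 to 1971 in Mettl3 control and 1819 to 1822 in Mettl3 cKO. The summed level of 16 fibroblast markers ran the other way, from 829 to 842 CPM in Mettl14 control over 1773 to 1779 in Mettl14 cKO to 6799 to 7009 in Mettl3 control and 8138 to 8249 in Mettl3 cKO. In both lists 0 markers were at 0 in all libraries.

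The major satellite is normally packed by methylation of histone H3 on lysine 9, by HP1 proteins bound to that mark and by DNA methylation. Both of its strands can nevertheless be transcribed at a low level, and the RNA tends to stay at the chromatin it came from. Olfactory receptor genes (Olfr), with which these transcripts are compared below, are used by sensory neurons of the nose and are ordinarily silent in embryonic stem cells. The 10 genes have no established function of their own, and since they are copies of 1 repeat, reads cannot be assigned to any of them with certainty.

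The first 234 bases of 5 transcripts, from GENCODE M21 on mm10, show the repeat on chromosomes 2, 14 and 9, and, in Gm26870, on its other strand. Capitals mark the m6A consensus pentamers GGACA or GGACC or GGACT on the printed strand and TGTCC or GGTCC or AGTCC where they lie on the other.
Gm10800: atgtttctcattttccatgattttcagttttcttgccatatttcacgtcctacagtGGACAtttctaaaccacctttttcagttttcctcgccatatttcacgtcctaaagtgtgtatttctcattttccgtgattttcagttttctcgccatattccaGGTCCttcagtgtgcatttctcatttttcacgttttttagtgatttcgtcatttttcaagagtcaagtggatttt
Gm10722: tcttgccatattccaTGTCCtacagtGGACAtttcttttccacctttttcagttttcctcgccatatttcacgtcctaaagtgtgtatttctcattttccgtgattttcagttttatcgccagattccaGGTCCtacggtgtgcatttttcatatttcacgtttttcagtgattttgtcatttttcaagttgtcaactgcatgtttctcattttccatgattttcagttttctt
Gm21738: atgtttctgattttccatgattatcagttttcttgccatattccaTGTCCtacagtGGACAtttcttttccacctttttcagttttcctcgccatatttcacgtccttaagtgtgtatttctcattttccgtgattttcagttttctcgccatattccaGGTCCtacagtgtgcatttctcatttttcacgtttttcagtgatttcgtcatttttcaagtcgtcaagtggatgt
Gm10801: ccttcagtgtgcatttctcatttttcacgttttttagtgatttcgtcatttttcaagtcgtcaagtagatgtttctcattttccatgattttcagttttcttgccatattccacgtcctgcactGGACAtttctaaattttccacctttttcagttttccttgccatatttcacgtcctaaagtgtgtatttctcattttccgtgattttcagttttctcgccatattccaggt
Gm26870: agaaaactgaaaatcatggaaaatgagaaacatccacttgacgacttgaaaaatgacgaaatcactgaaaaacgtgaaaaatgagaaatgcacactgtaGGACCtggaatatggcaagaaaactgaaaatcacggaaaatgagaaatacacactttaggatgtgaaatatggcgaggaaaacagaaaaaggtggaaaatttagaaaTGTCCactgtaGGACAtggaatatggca
These 5 were chosen because Gm10800 took most of the reads, Gm10722 differed most between the cell lines among the genes that passed the test, Gm21738 and Gm10801 show further loci, and Gm26870 runs in the opposite direction.

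Gm10800 lies on chromosome 2 from 98666547 to 98667301 on the minus strand and Gm10801 on the same chromosome from 98662237 to 98664083 on the plus strand. Gm21738 lies on chromosome 14 from 19415857 to 19418930 on the minus strand. The other 7 lie at the start of the chromosome 9 assembly, between 3000282 and 3038313. There Gm10722 spans 3000922 to 3002330, Gm11168 3003346 to 3006948, Gm10721 3013140 to 3014344, Gm10719 3017408 to 3021593, Gm10718 3023547 to 3025218 and Gm10717 3025417 to 3033289, all on the plus strand. Gm26870 is annotated as a long intergenic noncoding RNA from 3000282 to 3038313 on the minus strand, so it runs opposite to all the others of chromosome 9. Its exons share 275 bases with Gm10721, 235 with Gm11168, 218 with Gm10719 and 155 with Gm10718. The remaining 9 genes are annotated as protein coding, and the annotation gives no UTR for any of the 10.

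The genes were chosen as resembling the major satellite, so a shared repeat follows from the choice and is given here as description. When each transcript was shifted against itself by 180 to 300 bases, the best match fell at 234 bases for 7 of the 10. It fell at 225 bases for Gm10800, 231 for Gm10801 and 237 for Gm11168. At its best shift Gm26870 matched itself at 81.5% of positions, the highest value, Gm10721 at 67.6%, Gm10722 at 65.2%, Gm10800 at 56.3% and Gm10801 at 52.7%, the lowest. The comparison allowed no gaps, so inserted or deleted bases lower the match. It therefore does not rank how alike the copies are. Aligned to Gm10800, 8 of the other transcripts were 90.2% to 93.5% identical on the same strand, whereas Gm26870 was 85.6% identical as the reverse complement. Pyrimidines made up 68.3% to 69.5% of the bases in the 9 same-strand transcripts and 31.6% in Gm26870. A and T made up 63.8% to 65.7% in all 10.

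**Figure D1:**
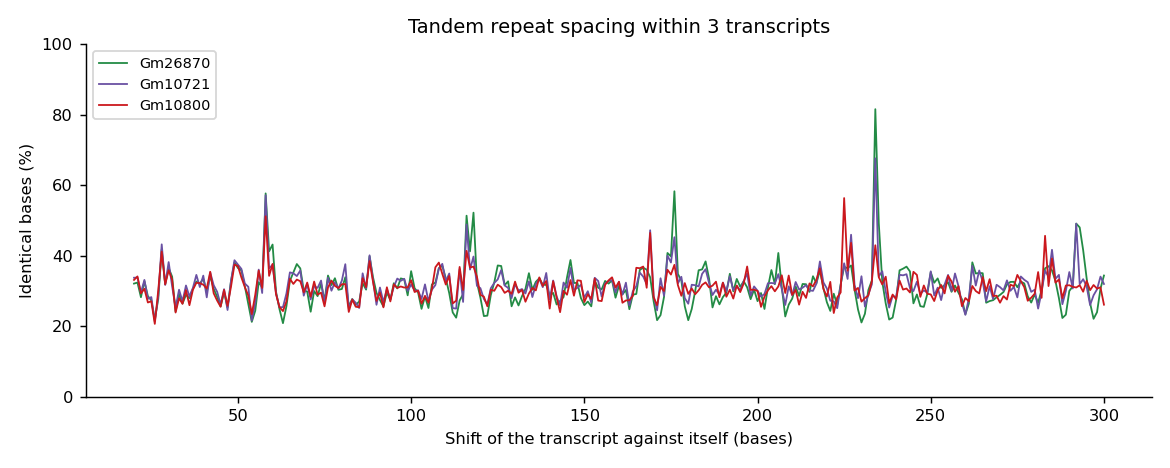
The share of identical bases (%, vertical axis) when each of 3 transcripts is compared with itself at a given shift (bases, horizontal axis). Gm26870 and Gm10721 peak at 234 bases, at 81.5% and 67.6%, and Gm10800 at 225 bases, at 56.3%.

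Each transcript held the pentamers GGACA or GGACC or GGACT at least once in its first 500 bases on its own strand, from 1 match in Gm10721, Gm10718 and Gm10717 over 2 in Gm10800, Gm10719, Gm21738, Gm10801 and Gm11168 and 3 in Gm10722 to 5 in Gm26870. On the opposite strand of the same stretch there were 1 match in Gm10801, 2 in Gm10800 and Gm26870, 4 in Gm10721, Gm10718 and Gm21738, 5 in Gm10719 and Gm10717 and 6 in Gm11168 and Gm10722. Of 40417 other genes with a transcript of at least 500 bases, 83.2% held a match on their own strand (median 2) and 75.6% on the other (median 1). A match of letters is a description of the sequence; methylation was not measured in these libraries.

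The 10 genes together took 0.0475% and 0.0509% of all counts in the libraries of Mettl14 control, 0.168% and 0.177% in Mettl14 cKO, 0.550% and 0.628% in Mettl3 control and 0.327% and 0.335% in Mettl3 cKO. The groups did not overlap, and their order was Mettl14 control, Mettl14 cKO, Mettl3 cKO and Mettl3 control from low to high. Scaled to library size, the sums of the Mettl14 line were 569.8 and 606.0 CPM in the controls and 1741 and 1842 CPM in the knockouts. Those of the Mettl3 line were 4840 and 5479 CPM in the controls and 3029 and 3115 CPM in the knockouts. Mettl14 cKO had 3.05-fold the mean of its control, and Mettl3 cKO had 59.5% of the mean of its own. The control of the Mettl3 line had 8.78-fold that of the Mettl14 line, so the difference between the lines exceeded that of either knockout, and Mettl14 cKO stood at 34.7% of Mettl3 control. In bulk RNA, fewer cells of a type and less RNA per cell cannot be told apart.

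**Figure D2:**
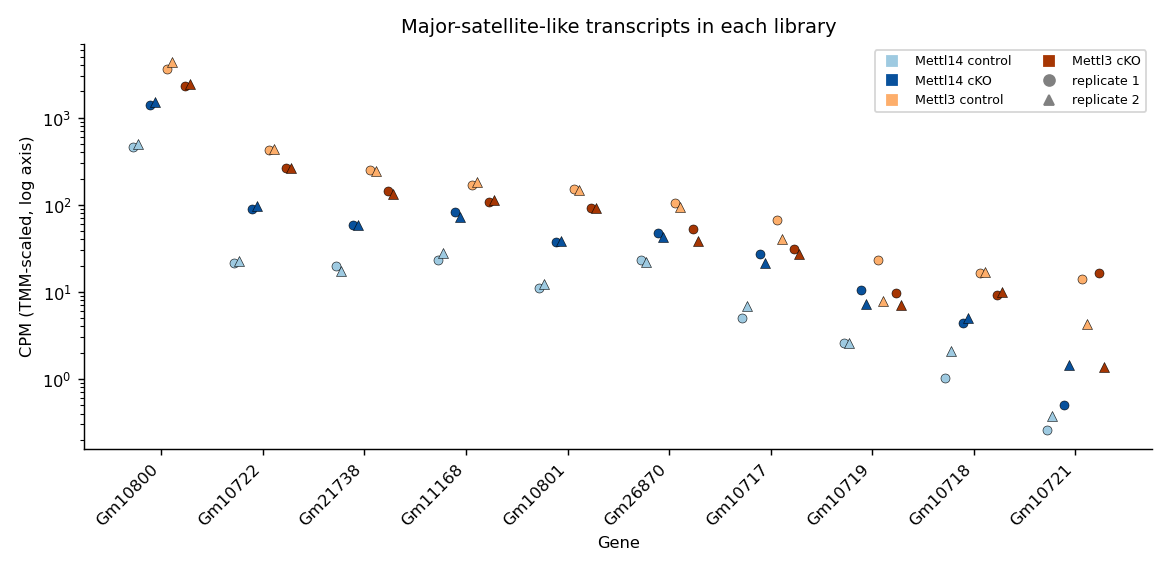
Scaled counts (CPM, log axis) of the 10 genes in each of the 8 libraries, with colour for the group and shape for the replicate. For all 10 genes every Mettl14 cKO library lies above both Mettl14 control libraries (the share of all tested genes that do so was not computed). Gm10721 at the right has the widest spread between replicates.

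Per length, Gm10800 stood above all the others. It had 723 ± 31.4 CPM per kilobase of exon (SD, n = 2) in Mettl14 control, 2183 ± 122 in Mettl14 cKO, 6011 ± 736 in Mettl3 control and 3590 ± 132 in Mettl3 cKO. Next in Mettl14 control came Gm10722 at 33.8 ± 1.33 CPM per kilobase, Gm21738 at 27.5 ± 2.48 and Gm10801 at 23.1 ± 2.00, and the last 2 differed by less than the sum of their spreads. In Mettl3 control the same 3 stood at 656 ± 14.6, 361 ± 5.55 and 297 ± 9.07 CPM per kilobase, further apart than their spreads. Gm11168 and Gm26870 lay lower, at 13.6 ± 1.81 and 8.32 ± 0.297 in Mettl14 control and at 93.3 ± 4.57 and 36.5 ± 2.76 in Mettl3 control. The remaining 4 had 0.473 to 2.27 CPM per kilobase in Mettl14 control and 8.61 to 24.4 in Mettl3 control, where Gm10721, Gm10719 and Gm10717 did not differ from each other beyond their spread.

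In Mettl14 cKO the transcripts were higher than in Mettl14 control. All 10 passed the filter on low counts, Gm10721 only through its reads in the Mettl3 line (286, 84, 306 and 26). In all 10 both Mettl14 cKO libraries lay above both controls. The share of all tested genes that separate in this way was not computed. By edgeR's quasi-likelihood test over 21782 genes with Benjamini-Hochberg adjustment, 8 of the 10 rose and 0 fell, against 18.0% of all tested genes that rose and 40.4% that changed either way. The log2 fold changes ran from 1.00 to 2.08 with a median of 1.64, against a median of 0.03 over all tested genes. The question behind it is how loss of METTL14 changes nuclear RNA.

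Gm10800 had 462 and 492 CPM in Mettl14 control against 1384 and 1497 in Mettl14 cKO. The mean of the cKO libraries was 3.02-fold that of the controls, a log2 fold change of 1.59 ± 0.11 (SE, edgeR, adjusted p = 0.000345). Gm10801, its neighbour on chromosome 2, had 10.9 and 12.4 CPM in control and 37.3 and 38.2 in cKO, and rose by 1.69 ± 0.08 (adjusted p = 2.9e-42). Gm21738 on chromosome 14 had 19.9 and 17.5 CPM in control and 58.3 and 59.2 in cKO, and rose by 1.65 ± 0.06 (adjusted p = 1.0e-50). The fold changes of these 3 genes lay close together.

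On chromosome 9 the rise was greatest for Gm10722, which had 21.4 and 22.6 CPM in Mettl14 control against 89.9 and 96.6 in Mettl14 cKO, a 4.24-fold difference (log2 fold change 2.08 ± 0.05, edgeR, adjusted p = 4.4e-70). Gm11168 had 23.2 and 28.1 CPM in control and 82.2 and 72.4 in cKO (1.59 ± 0.07, adjusted p = 1.8e-19). Gm10718, a gene of few reads, had 1.02 and 2.07 CPM in control and 4.41 and 4.96 in cKO (1.59 ± 0.23, adjusted p = 1.5e-09). Gm10717 had 5.06 and 6.84 CPM in control and 26.9 and 21.2 in cKO. Its log2 fold change of 2.01 ± 0.50 passed the threshold in the fit of all 8 libraries (edgeR, adjusted p = 0.0359). It did not pass without the filter on low counts (edgeR, adjusted p = 0.1003) or by limma-voom (0.102). The call was also lost without any one library of the Mettl14 line or of Mettl3 cKO, with log2 fold changes from 1.80 to 2.25.

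Gm26870, the transcript of the opposite strand, had the smallest change of the 10. It had 23.0 and 21.8 CPM in Mettl14 control against 46.9 and 43.0 in Mettl14 cKO, 2.01-fold its control (log2 fold change 1.00 ± 0.21, edgeR, adjusted p = 0.0200). Gm26870 missed the threshold when Mettl14 control replicate 1 (log2 fold change 1.03) or replicate 2 (0.97) was left out. Gm10719 had 2.56 and 2.57 CPM in control and 10.6 and 7.28 in cKO, with a log2 fold change of 1.79 ± 0.88 that did not pass the test (adjusted p = 0.197). It passed when only the 2 Mettl14 groups were fitted (edgeR, adjusted p = 2.7e-15) and by DESeq2 (adjusted p = 0.0143). Without Mettl3 control replicate 1 or replicate 2 its log2 fold change was 1.80. Gm10721 had 0.256 and 0.377 CPM in control and 0.502 and 1.45 in cKO, with a log2 fold change of 1.62 ± 3.51 (adjusted p = 0.771). Its counts there were 4 and 6 against 9 and 28, too few and too uneven for a difference to be detectable at this depth.

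In Mettl3 cKO the same transcripts went the other way on this scale. Of the 10 genes 7 fell and 0 rose by the same test, against 5.78% of all tested genes that fell and 20.9% that changed either way; with libraries scaled to olfactory receptor reads instead, as described below, 1 of the 10 fell and 4 of the 7 had log2 fold changes above 0. The log2 fold changes ran from -1.10 to -0.06 with a median of -0.77, against a median of 0.03 over all tested genes. In 8 of the 10, every Mettl3 cKO library lay below both Mettl3 controls, and Gm10719 and Gm10721 overlapped between the groups. Here too the share of all tested genes that separate was not computed.

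Gm10800 had 3624 and 4311 CPM in Mettl3 control and 2307 and 2431 in Mettl3 cKO, so the cKO libraries stood at 59.7% of control (log2 fold change -0.74 ± 0.10, edgeR, adjusted p = 0.0101). It missed the threshold when only the 2 Mettl3 groups were fitted (edgeR, adjusted p = 0.0839). It also missed it when Mettl3 cKO replicate 1 (log2 fold change -0.67) or Mettl3 cKO replicate 2 (-0.74) was left out. Gm10722 had 420 and 434 CPM in control and 261 and 263 in cKO (-0.70 ± 0.03, adjusted p = 5.0e-45). Gm21738 had 248 and 243 CPM in control and 142 and 133 in cKO (-0.84 ± 0.04, adjusted p = 1.4e-44). In both genes the replicates of a group lay close together and far from the other group.

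Gm10801 had 153 and 146 CPM in Mettl3 control and 90.9 and 92.2 in Mettl3 cKO (-0.71 ± 0.04, edgeR, adjusted p = 3.8e-31). Gm11168 had 170 and 183 CPM in control and 108 and 112 in cKO (-0.68 ± 0.05, adjusted p = 4.4e-13), and Gm10718 had 16.3 and 16.9 in control and 9.14 and 9.86 in cKO (-0.81 ± 0.12, adjusted p = 3.2e-08). Gm26870 had the lowest log2 fold change and went from 103 and 93.0 CPM to 53.3 and 38.7, or 46.8% of control (-1.10 ± 0.16, adjusted p = 0.0118). Its call was lost when only the 2 Mettl3 groups were fitted (adjusted p = 0.108).

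The other 3 genes of chromosome 9 were uneven between replicates of the Mettl3 line. Gm10717 had 67.5 and 40.2 CPM in Mettl3 control and 31.1 and 27.1 in Mettl3 cKO (-0.89 ± 0.31, edgeR, adjusted p = 0.136). Gm10719 had 23.1 and 7.90 CPM in control and 9.72 and 7.04 in cKO (-0.89 ± 0.60, adjusted p = 0.408). Gm10721 had 14.1 and 4.25 CPM in control and 16.3 and 1.39 in cKO (-0.06 ± 1.11, adjusted p = 0.982). Replicate 1 exceeded replicate 2 by 1.68, 2.93 and 3.31 times in Mettl3 control for Gm10717, Gm10719 and Gm10721, and by 11.7 times in Mettl3 cKO for Gm10721, whereas the ratio for the summed genes was 0.884 and 0.973. Leaving out 1 Mettl3 control library leaves 1 in that group, so only the log2 fold changes of those fits are given. Without Mettl3 control replicate 1 they were -0.44 for Gm10717, 0.12 for Gm10719 and 1.08 for Gm10721. Without Mettl3 control replicate 2 they were -1.18 for Gm10717 and -1.43 for Gm10719.

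**Figure D3:**
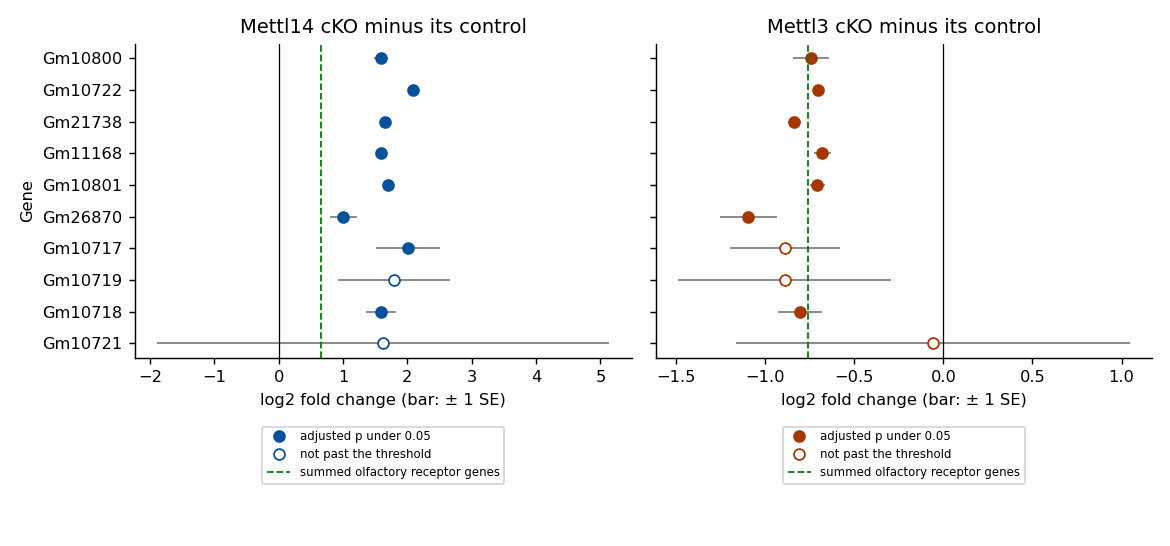
Log2 fold changes (horizontal axes, bars ± 1 SE) of the 10 genes in each knockout against its own control, with filled points for an adjusted p under 0.05 and a dashed line for the change of the summed olfactory receptor genes. All points lie right of the dashed line at 0.65 in the Mettl14 panel, from 1.00 to 2.08; in the Mettl3 panel they lie on both sides of the line at -0.76.

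The responses to the knockouts differed. The Mettl14 change minus the Mettl3 change passed edgeR's test for 8 of the 10 genes, all higher, against 12.7% of all tested genes that were higher, with a median log2 difference of 2.40 against 0.02 over all tested genes. It was 2.79 ± 0.06 for Gm10722 (SE, adjusted p = 1.6e-77), 2.34 ± 0.15 for Gm10800 (0.000361) and 2.099 ± 0.262 for Gm26870 (0.00423). Gm10719 (2.68 ± 1.06, adjusted p = 0.139) and Gm10721 (1.68 ± 3.69, 0.785) did not pass, though Gm10719 did by DESeq2 (0.00985) and with the replicate block (0.0399). Without Mettl3 control replicate 1 the difference for Gm10719 was 1.68, and without replicate 2 it was 3.23. The call of Gm10717 (2.90 ± 0.59, edgeR, adjusted p = 0.0229) was lost without the filter (adjusted p = 0.0661) or by limma-voom (0.0620). It was also lost without any one library of the Mettl14 line or of Mettl3 cKO, with log2 differences from 2.66 to 3.10.

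The controls of the lines stood further apart, by their fitted log2 differences, than either knockout stood from its control. Of the 10 genes 9 were lower in Mettl14 control than in Mettl3 control and 0 were higher, against 34.1% and 33.6% of all tested genes, 67.8% in all. The log2 differences ran from -2.13 for Gm26870 to -4.83 for Gm10721, with a median of -3.30 against -0.09 over all tested genes. Gm10722 differed 19.4-fold (-4.28 ± 0.05, edgeR, adjusted p = 5.7e-119), Gm21738 13.1-fold (-3.72 ± 0.05, adjusted p = 1.9e-103), Gm10800 8.31-fold (-3.06 ± 0.11, adjusted p = 1.5e-05) and Gm26870 4.39-fold (-2.13 ± 0.19, adjusted p = 0.000458). Gm10721 did not pass (-4.83 ± 2.19, edgeR, adjusted p = 0.117). The call of Gm10719 (-2.60 ± 0.79, edgeR, adjusted p = 0.0406) was lost without the filter (0.113), by limma-voom (0.133), with only the 2 control groups fitted (0.139) and with scaling to olfactory receptor reads (0.450). It was also lost without any one library of the Mettl14 line or of Mettl3 cKO, with log2 differences from -2.55 to -2.53. DESeq2 called Gm10721 as well (adjusted p = 0.000989). Line and group cannot be told apart here, since each control stands for 1 line.

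Reads on olfactory receptor genes followed the same order of groups. The 1407 Olfr genes together had 1295 and 1505 reads in Mettl14 control, 2381 and 2832 in Mettl14 cKO, 6374 and 6237 in Mettl3 control and 3549 and 3431 in Mettl3 cKO. On the TMM-scaled scale that was 82.9 and 94.5 CPM, 133 and 146 CPM, 313 and 316 CPM and 189 and 183 CPM, so Mettl14 cKO had 1.57-fold its control and Mettl3 cKO 59.1% of its own. The 558 vomeronasal receptor genes of the Vmn1r and Vmn2r families, also ordinarily silent, moved 1.53-fold and to 58.5%. Of the Olfr genes, 135 passed the filter on low counts. In Mettl14 cKO 12 of these rose and 2 fell, against 18.0% and 22.4% of all tested genes. The share of Olfr genes called higher was thus below that of all genes. Their median log2 fold change was nevertheless 0.92, against 0.03 over all tested genes. The share called therefore does not rank the size of change of these 135 genes. Without scaling beyond total counts 26 rose and 0 fell, and with scaling to their own reads 4 rose and 9 fell. The median log2 fold change of all tested genes was 0.24 and -0.62 under these scalings. In Mettl3 cKO 0 rose and 21 fell, against 15.1% and 5.78% of all tested genes, and with scaling to their own reads 8 rose and 6 fell. Olfr reads were most numerous in Mettl3 control, so Olfr genes could pass the filter through that group. Falls from Mettl3 control are then favoured among the tested Olfr genes, and the count of 21 is given as description.

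Dividing the satellite-like reads of a library by its olfactory receptor reads needs no scaling between libraries. The ratio was 6.87 and 6.41 in Mettl14 control, 13.1 and 12.6 in Mettl14 cKO, 15.4 and 17.4 in Mettl3 control and 16.1 and 17.03 in Mettl3 cKO. In the Mettl14 line the groups stood apart, with means of 6.64 ± 0.326 in control and 12.8 ± 0.362 in cKO (SD, n = 2), a log2 ratio of 0.95 that has no test. In the Mettl3 line they overlapped, with means of 16.4 ± 1.35 and 16.5 ± 0.680 and a log2 ratio of 0.01, less than the spread between replicates. Without Gm10800 the ratio was 1.25 ± 0.0606 and 2.52 ± 0.236 in the Mettl14 line and 3.79 ± 0.128 and 3.78 ± 0.0627 in the Mettl3 line. Satellite-like reads thus exceeded the change of olfactory receptor reads in Mettl14 cKO and changed in step with them in Mettl3 cKO.

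**Figure D4:**
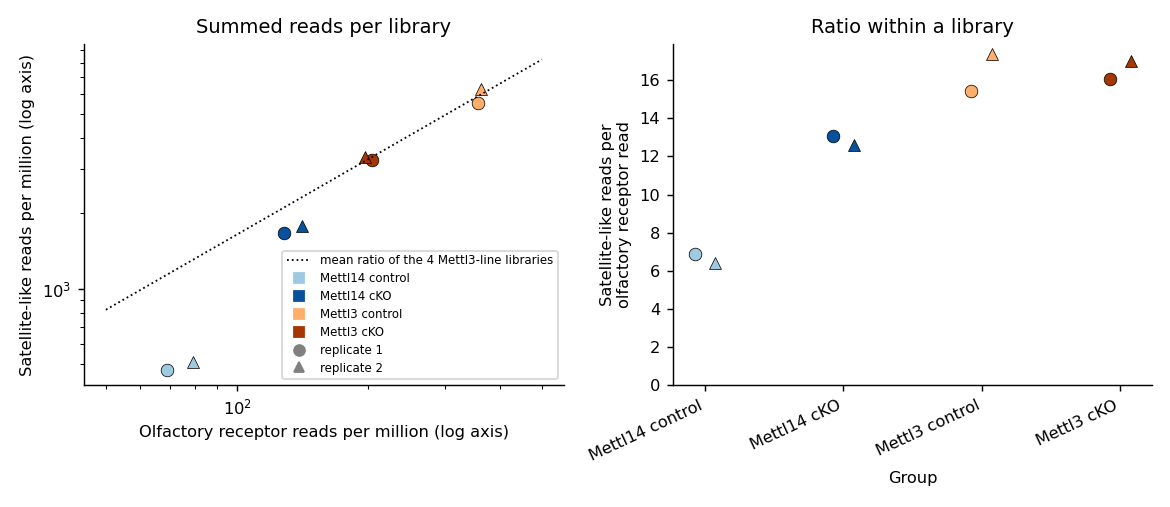
Left, satellite-like against olfactory receptor reads as a share of all counts in each library, in CPM without further scaling (both axes log), with a dotted line at the mean ratio of the Mettl3-line libraries. Right, the ratio of satellite-like to olfactory receptor reads in each library; the Mettl14 control libraries sit at 6.87 and 6.41, the Mettl14 cKO libraries at 13.1 and 12.6 and the 4 of the Mettl3 line between 15.4 and 17.4.

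A second fit with libraries scaled to their olfactory receptor reads, chosen after these values were seen, gave the test for single genes. In Mettl14 cKO 8 of the 10 genes rose, against 2.33% of all tested genes, with the median of all tested genes at -0.62 on this scale and that of the 10 genes at 0.98. Gm10722 rose by 1.43 ± 0.12 (SE, edgeR, adjusted p = 5.1e-33), Gm10800 by 0.94 ± 0.10 (adjusted p = 2.2e-18) and Gm26870 by 0.35 ± 0.12 (adjusted p = 0.00640). In Mettl3 cKO 1 of the 10 fell, against 0.298% of all tested genes, with the median of all tested genes at 0.78 and that of the 10 genes at -0.01. This was Gm26870 (-0.34 ± 0.11, adjusted p = 0.00270), while Gm10800 had 0.02 ± 0.10 (adjusted p = 0.891) and Gm10722 0.06 ± 0.10 (adjusted p = 0.630). On this scale Mettl3, the targeted gene, also lost its call in Mettl3 cKO (log2 fold change -0.19, edgeR, adjusted p = 0.152).

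On the same scale the Mettl14 change exceeded the Mettl3 change for 8 of the 10 genes, against 0.523% of all tested genes. The median log2 difference was 0.99 for the 10 genes and -1.40 for all tested genes. In Mettl14 control 8 of the 10 were lower than in Mettl3 control, against 1.82% of all tested genes, with medians of -1.48 and 1.74. The shares of all tested genes carry that shift of the median. With TMM scaling they were 12.7% and 34.1%. Per 100 olfactory receptor reads Gm10722 had 24.9 ± 1.32 reads in Mettl14 control, 66.8 ± 1.18 in Mettl14 cKO, 136 ± 2.34 in Mettl3 control and 141 ± 3.76 in Mettl3 cKO (SD, n = 2). Gm21738 had 21.3 ± 3.87, 42.1 ± 2.42, 78.1 ± 1.59 and 74.0 ± 2.00 in the same order of groups, and Gm10801 13.1 ± 0.0813, 27.1 ± 1.39, 47.6 ± 1.69 and 49.3 ± 1.58. Gm26870 had 25.4 ± 3.25, 32.4 ± 4.18, 31.2 ± 2.51 and 24.7 ± 5.06, which is a much narrower range than that of the others. What puts reads on silent receptor genes was not tested.

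The make-up of the summed reads shifted between the groups as well. Gm10800 took 81.2% and 81.1% of them in Mettl14 control, 79.5% and 81.3% in Mettl14 cKO, 74.9% and 78.7% in Mettl3 control and 76.2% and 78.0% in Mettl3 cKO, with overlap between some groups. Gm10722 took 3.75% and 3.73% in Mettl14 control, 5.17% and 5.24% in Mettl14 cKO, 8.68% and 7.92% in Mettl3 control and 8.62% and 8.45% in Mettl3 cKO. Its share was thus low in Mettl14 control, intermediate in Mettl14 cKO and alike in both groups of the Mettl3 line. Gm26870 went the other way, with 4.03% and 3.61%, 2.70% and 2.34%, 2.14% and 1.70%, and 1.76% and 1.24% in the same order. Gm21738 took 2.89% to 3.49% in the Mettl14 line and 4.26% to 5.13% in the Mettl3 line, and Gm10801 1.92% to 2.14% and 2.67% to 3.16%, in both cases without overlap between the lines.

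**Figure D5:**
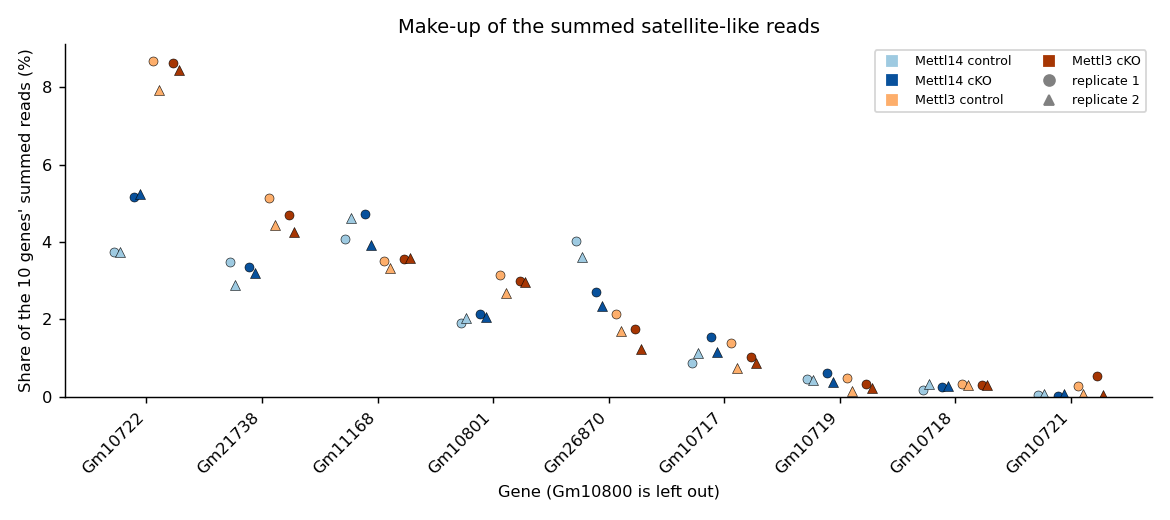
The share of each gene in the summed reads of the 10 genes (%, vertical axis) in each library, with Gm10800 left out because it took 74.9% or more. Gm10722 rises from 3.73% in Mettl14 control to 8.68% in Mettl3 control, and Gm26870 runs in the opposite direction, from 4.03% to 1.24% in Mettl3 cKO.

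Other genes near these loci shared the sequence. Within 50 kb of the 10 genes lie Gm10720, Gm17535 and Gm10715 on chromosome 9, of whose 20-base words 96.2%, 95.3% and 91.1% occur in the 10 genes on either strand, and no other annotated gene reached 10%. Gm10715 had 6 and 3 reads in Mettl14 control, 16 and 23 in Mettl14 cKO, 81 and 75 in Mettl3 control and 41 and 65 in Mettl3 cKO. It rose in Mettl14 cKO by 1.85 ± 0.51 (SE, edgeR, adjusted p = 0.00144), a call lost without Mettl14 control replicate 2 (log2 fold change 1.43). Gm10720 (1.43 ± 0.63, adjusted p = 0.0617) and Gm17535 (1.45 ± 0.66, adjusted p = 0.0695), both with under 50 reads in every library, did not pass there, and none of these 3 passed in Mettl3 cKO. Mir101c on chromosome 9 had 0 reads in all 8 libraries, and the pseudogene Gm9637 on chromosome 14 had 0 to 6.

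Genes of pericentromeric heterochromatin were described from a list of 40. In Mettl14 cKO 2 rose and 25 fell by edgeR's test (12 and 21 without scaling beyond total counts, 0 and 38 with scaling to olfactory receptor reads), with a median log2 fold change of -0.33. The 5 with the smallest p were Incenp, a subunit of the chromosomal passenger complex (-1.52 ± 0.04), Hells, a chromatin remodeller needed for DNA methylation of repeats (-0.78 ± 0.02), Cbx3, which encodes HP1 gamma (-1.04 ± 0.04), Baz2a, a subunit of a silencing complex of ribosomal DNA (-0.73 ± 0.03), and Mphosph8, a subunit of the HUSH silencing complex (-0.92 ± 0.04). Of 12 genes of nuclear RNA surveillance and small-RNA processing 0 rose and 11 fell (1 and 7 without scaling beyond total counts), with a median of -0.39. Of all tested genes 18.0% rose and 22.4% fell with TMM scaling. Their median log2 fold change was 0.24 without scaling beyond total counts and -0.62 with scaling to olfactory receptor reads. The counts under those scalings carry that shift. The members of these lists were chosen for their role, with earlier results known.

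In Mettl3 cKO 4 of the 40 heterochromatin genes rose and 8 fell (0 and 20 with upper-quartile scaling, 40 and 0 with scaling to olfactory receptor reads), with a median of 0.00. Of all tested genes 15.1% rose and 5.78% fell there with TMM scaling. Their median log2 fold change was -0.09 with upper-quartile scaling and 0.78 with scaling to olfactory receptor reads. The counts under those scalings carry that shift. The 5 with the smallest p were Hells (-0.23 ± 0.03), the maintenance DNA methyltransferase gene Dnmt1 (-0.22 ± 0.03), its partner Uhrf1 (-0.21 ± 0.03), the nuclear RNA-binding protein gene Hnrnpu (-0.12 ± 0.02) and the de novo DNA methyltransferase gene Dnmt3b (-0.20 ± 0.04), and all 5 were above 0 when scaled to olfactory receptor reads. Hnrnpu lost its call without Mettl3 cKO replicate 1 (edgeR, adjusted p = 0.192) and Dnmt3b without Mettl3 cKO replicate 2 (adjusted p = 0.0651), and both did without the filter on low counts (0.858 and 0.125). Of the 12 RNA surveillance genes 2 rose and 2 fell (1 and 7 with upper-quartile scaling, 12 and 0 with scaling to olfactory receptor reads), so neither list kept its direction under every scaling there. Between the controls 33 of the 40 heterochromatin genes were higher and 3 lower in Mettl14 control, against 33.6% and 34.1% of all tested genes. That split was 20 and 13 without scaling beyond total counts, where the median log2 difference of the list was 0.12 in place of 0.57. The median of all tested genes was -0.54 there.

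Of 16 tested genes of the 2-cell-like state, a rare state of embryonic stem cells known for satellite transcription, 0 rose and 2 fell in each knockout, where 22.4% of all tested genes fell in Mettl14 cKO and 5.78% in Mettl3 cKO. In Mettl14 cKO the split was 0 and 0 without scaling beyond total counts and 0 and 12 with scaling to olfactory receptor reads, and in Mettl3 cKO it was 1 and 1 with the latter. Between the controls 14 were higher and 0 lower in Mettl14 control, which had fewer satellite-like reads than Mettl3 control, against 33.6% of all tested genes that were higher, with a median log2 difference of 3.58. Among fibroblast markers 10 of 15 tested rose and 0 fell in Mettl14 cKO, against 18.0% of all tested genes that rose, beside the rise of the satellite-like transcripts. In Mettl3 cKO 7 rose and 1 fell, against 15.1% of all tested genes that rose, beside the fall of those transcripts. With scaling to olfactory receptor reads 6 fibroblast markers rose and 3 fell in Mettl14 cKO, and 14 rose and 0 fell in Mettl3 cKO. The median log2 fold change of all tested genes on that scale was -0.62 in Mettl14 cKO and 0.78 in Mettl3 cKO. The part of these cell type markers in the satellite-like reads was not tested.

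Some genes outside the repeat had nearly the same pattern over the 8 libraries. Among 14049 genes whose log2 CPM averaged 1 or more, the 6 most like the summed satellite-like reads by Pearson's r of log2 CPM were Flna (0.996), which encodes the actin crosslinker filamin A, Plau (0.992), the urokinase gene, the protocadherin gene Pcdhgb2 (0.991), Tln1 (0.991), which encodes the integrin-binding protein talin, the adenylyl cyclase gene Adcy3 (0.987) and Fstl1 (0.987), a secreted follistatin-like protein. Flna had means of 905 CPM in Mettl14 control, 1467 in Mettl14 cKO, 2153 in Mettl3 control and 1853 in Mettl3 cKO, a smaller range than that of the satellite-like sum. The 8 points share their cell line and scaling, and most of the spread lies between the lines. Of the 10 genes themselves, Gm10800 followed the sum at r of 0.9997, Gm26870 at 0.929, Gm10719 at 0.841 and Gm10721 at 0.817. The sum includes these genes, and Gm10800 took 74.9% or more of it in every library. Its r is therefore near 1 by arithmetic and cannot be set beside that of genes outside the sum.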

How the data were processed

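For each library the authors deposited 1 table of raw read counts per gene, from nuclear RNA depleted of ribosomal RNA. Per the submitters' processing notes the authors used CASAVA, Trimmomatic 0.38, HISAT2 2.1.0 and HTSeq with mm10. Annotation, strand setting and handling of multi-mapping reads are not stated, so near-identical copies can gain, lose or share reads, and genes that overlap on opposite strands cannot be told apart with certainty. IDs were matched without version to GENCODE M21 (54409 of 54446 genes), the source of the transcripts. Replicates differed by more than sampling noise (chi-square per degree of freedom 1.42 to 2.05).

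The filter filterByExpr (minimum count 10) passed 21782 genes. With edgeR 4.0.16 (R 4.3.3), TMM scaling, robust glmQLFit and glmQLFTest, 1 mean per group was fitted to all 8 libraries, leaving 4 residual degrees of freedom. Calls needed an adjusted p under 0.05 (Benjamini-Hochberg over all tested genes), and a gene is said to rise or fall only if called. The SE of a log2 fold change was derived from the test, as its absolute value divided by the square root of the F statistic. The fit was run on simulated counts that had the same dispersion for all genes. That does not check it for genes with uneven replicates, such as Gm10721. Summed reads have no test. Alternatives were other scalings, no filter, DESeq2 1.42.0, limma-voom (limma 3.58.1), the replicate number as a block and fits of only the compared groups. Each library was also left out in turn, which leaves 1 library in its group. The p-values of those fits do not measure the spread of that group. Scaling to olfactory receptor reads was added after seeing the data.

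The 10 genes and all lists were chosen with earlier results of these data known. Named besides them are genes within 50 kb, Mettl3 and Mettl14, the 5 called heterochromatin genes of smallest p per knockout and the 6 genes most alike in pattern (log2 of CPM plus 0.1).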

Additional observations from a re-analysis of the deposited data

Results flagged for a closer look

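For the following genes the Mettl14 change differed from the Mettl3 change in the edgeR test of that difference, given here as a log2 difference. Among the satellite-like genes it was 2.34 for Gm10800, 2.40 for Gm10801, 2.49 for Gm21738, 2.79 for Gm10722, 2.27 for Gm11168, 2.40 for Gm10718, 2.90 for Gm10717 and 2.099 for Gm26870. For their neighbours on chromosome 9 it was 2.31 for Gm10715 and 2.05 for Gm17535. The call of Gm10715 was lost with scaling to olfactory receptor reads (log2 difference 0.91, adjusted p = 0.172), and that of Gm17535 in 9 of the alternatives, among them DESeq2 (adjusted p = 0.175). Among the heterochromatin genes it was -1.50 for Incenp, -0.86 for Cbx3, -0.85 for Mphosph8, -0.71 for Baz2a, -0.55 for Hells, -0.40 for Hnrnpu and -0.36 for Dnmt3b, so that the Mettl14 change lay below the Mettl3 change. For Uhrf1 it was 0.17 and for Dnmt1 0.13.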

How the results depend on the processing

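Of the 10 satellite-like genes, 6 to 9 were called in Mettl14 cKO over all alternatives, 7 to 9 for the difference between the knockouts and 8 to 10 between the controls. In Mettl3 cKO 5 to 9 were called over all alternatives but 1: with scaling to olfactory receptor reads, 1 gene was called. Some of these counts come from fits with 1 library left out, whose p-values do not measure the spread of the group left with 1. Such fits lost calls, as given above, and also gained some. Without 1 Mettl3 control library Gm10719 gained a call in each knockout and in their difference, and Gm10717 in Mettl3 cKO. DESeq2 called 9, 7, 9 and 10 genes in the 4 comparisons. The log2 ratio of the summed reads in Mettl14 cKO was 1.61, and 1.81 without scaling beyond total counts (1.56 to 1.65 with 1 library left out); per olfactory receptor read it was 0.95, and 0.80 without the 5 olfactory receptor genes of most reads (0.90 to 1.00). In Mettl3 cKO these ratios stayed between -0.86 and -0.66 and between -0.07 and 0.10.

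Values that changed sign were all in Mettl3 cKO. With scaling to olfactory receptor reads the log2 fold change was 0.017 for Gm10800, 0.69 for Gm10721, 0.052 for Gm10801, 0.079 for Gm11168, 0.056 for Gm10722, 0.53 for Hells, 0.54 for Dnmt1, 0.55 for Uhrf1, 0.64 for Hnrnpu and 0.56 for Dnmt3b. That scaling holds the summed olfactory receptor reads level between libraries, and the median of all tested genes was 0.78 under it. Gm10721 had 0.047 without a filter and -2.68 to 1.08 with 1 library left out, above 0 without Mettl3 control replicate 1 or Mettl3 cKO replicate 2. Gm10719 had -1.43 to 0.12 with 1 library left out, above 0 without Mettl3 control replicate 1; the cause was not tested.

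With the replicate number as a block, 8, 7, 9 and 9 genes were called in the 4 comparisons, against 8, 7, 8 and 9 without it. Samples of the same number did not deviate together (r = -0.03 in the Mettl14 line and 0.06 in the Mettl3 line, across genes), so the numbers were not taken as pairs.

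Precision is limited by 2 libraries per group, by counts under 50 in several libraries for Gm10721, Gm10719 and Gm10718, and by the copies' shared sequence.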
